A study of Mus musculus with 12 samples.

Results

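The comparison of 6 with 2 µM PFOS in C2C12 cells asked what the higher dose of this perfluorinated surfactant added to, or turned back from, the lower dose. It compared 8 of the series' 12 RNA sequencing libraries, 4 at each dose, over all genes of the deposited count table. C2C12 is a mouse skeletal myoblast line. All cells were confluent before exposure, and PFOS was present for 24 h, at 0, 2 or 6 µM. Every library was built from messenger RNA after TRIzol extraction. The 4 libraries at 0 µM placed each gene's level before the lower step. They also shared in the estimate of spread behind the gene-level p-values and entered the comparisons with the lower step. The labels do not state whether replicate libraries are separate cultures, and p-values therefore measure only the spread between these libraries, which may be technical.

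PFOS resembles a fatty acid in shape: a fluorinated tail with an acid head. Fatty acids are natural ligands of the PPAR nuclear receptors, which in muscle switch on genes for taking up, storing and burning fat. SREBP transcription factors drive cholesterol and fatty acid synthesis and are held back by INSIG proteins when sterols are plentiful. YAP, with its TEAD partners, and SRF, with its cofactors, drive genes that respond to cell shape, tension and contact, and confluent cells usually hold YAP back. These pathways, together with muscle, matrix and stress genes, order the account below.

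Depth did not separate the 2 doses, with total counts per library from 39837059 to 50351082 at 2 µM and from 39794974 to 44669988 at 6 µM (two-sided exact permutation p = 0.686; the smallest p that 4 against 4 allows is 0.0286). Mitochondrially encoded genes took 2.225% and 2.14% of counts on average at 2 and 6 µM (exact permutation p = 0.771). Libraries at 6 µM lay farther from the mean of their dose than those at 2 µM, with a root mean square deviation of 0.4045 against 0.345 on the log2 scale (exact permutation p = 0.0286). The 4 deviations of a dose are taken from their shared mean and are not independent, so this p is descriptive only. Replicate 1 at 0 µM had a deviation of 0.402. The myoblast markers Des and Itga7 were abundant, at 229 and 180 CPM (counts scaled to library size, with TMM factors) at 2 µM and 230 and 175 CPM at 6 µM. The other myoblast markers were at 33.3 and 31.3 CPM for Cdh15, 28.1 and 23.2 CPM for Myod1, and 2.79 and 1.79 CPM for Myf5, at 2 and 6 µM, and all 5 summed to 454 to 498 CPM and 434 to 483 CPM. None of the 5 was called by edgeR, and DESeq2 called Myod1 lower (adjusted p = 0.0375). Among markers of other cell types, the adipocyte genes Adipoq and Retn had 0 counts in all 8 libraries. Enough counts for a test were found for 2 of 8 adipocyte, 4 of 6 fibroblast and 4 of 5 smooth muscle markers. The same held for 1 of 6 endothelial, 2 of 6 macrophage and 1 of 4 neuron markers. None of those tested was called by edgeR, and the others could not be called. The tested neuron marker, Syt1, was at 33.3 CPM at 2 µM and 29.1 CPM at 6 µM. Of 3 tested genes of a wider neuron list, 2 were lower at an unadjusted p under 0.05 by edgeR, and none was called.

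From 2 to 6 µM 178 of 16038 tested genes were called (1.11%), of which 90 rose (0.561%) and 88 fell (0.549%), by edgeR's quasi-likelihood test at a Benjamini-Hochberg adjusted p under 0.05. At an unadjusted p under 0.05 by the same test, 922 of the tested genes were higher and 1085 lower. DESeq2 called 229 higher and 216 lower, and limma-voom 127 and 110. These counts over all genes are the background for the list counts below. Angptl4 rose 3.27-fold, a gene whose secreted product blocks lipoprotein lipase, and Pdk4, which encodes a kinase that shuts down pyruvate dehydrogenase, rose 2.36-fold. Genes of sterol and fatty acid synthesis rose by small amounts, while the actin gene Acta2 and the matrix gene Thbs1 fell. The median size of a called change was 1.24-fold in either direction, with 5 rises and 4 falls of at least 2-fold. The CPM of the 2 doses did not overlap for 88 of the 90 higher and 85 of the 88 lower genes, against 8.6% of all tested genes. The calls rest on the same libraries, so this separation follows largely from the call and is not separate support.

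Of the 90 genes that rose, 72 had not been called between 0 and 2 µM, 16 had already risen there, and 2 had fallen there. Of the 88 that fell, 68 had not been called at the lower step, 11 had already fallen, and 9 had risen. The lower step itself called 377 genes (2.35%), of which 258 rose (1.61%) and 119 fell (0.742%). Both steps use the 4 libraries at 2 µM, so a deviation of those libraries enters the 2 steps with opposite signs. A gene that was not called at the lower step is not thereby shown to respond only at the higher one. Another test on the same libraries asked whether the 2 steps differ. Its step difference is the log2 change from 2 to 6 µM minus the log2 change from 0 to 2 µM. It was called for 41 genes (0.256%), higher for 5 (0.0312%) and lower for 36 (0.224%). Of the 90 genes that rose 4 had a called step difference, and of the 88 that fell 13. Others of the 41, such as Ero1l and Epha2, rose at the lower step and were not called at the higher one. A called step difference therefore does not by itself show a response only at the higher step.

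The counts rest on each library: without 2 µM replicates 2, 3 and 4, the 90 higher genes became 57, 57 and 49, and the 88 lower genes 50, 42 and 33. Of the 6 µM libraries, leaving out replicate 1, 3 or 4 gave 52, 53 or 45 higher and 41, 40 or 37 lower genes, and leaving out 0 µM replicate 1 gave 138 higher genes. The 63 genes called in all 12 such fits, 38 higher and 25 lower, include Angptl4, Pdk4, Plin2, Cpt1a, Hmgcs1, Fasn, Cyr61, Thbs1, Acta2 and H19.

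**Figure D1:**
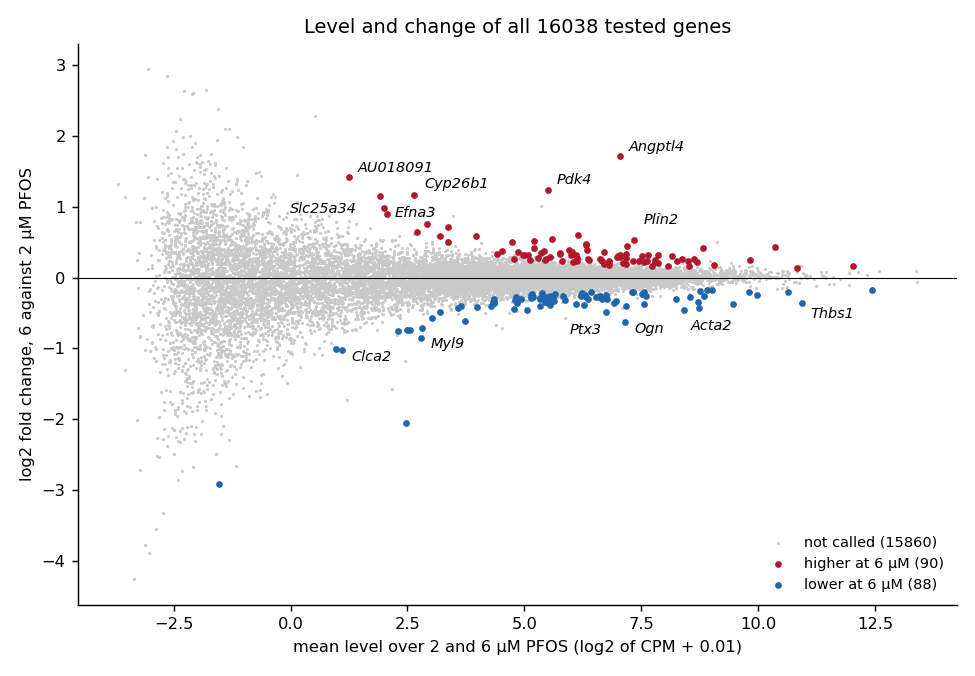
Each point is 1 of 16038 tested genes, with the mean level over the 2 and 6 µM libraries (log2 of CPM) on the x axis and the log2 fold change of 6 against 2 µM on the y axis; red marks the 90 genes called higher and blue the 88 called lower. Angptl4 and Pdk4 stand apart at well expressed levels, and most other called genes lie close to 0.

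Of the 5 genes that rose at least 2-fold, 3 were PPAR targets, Angptl4, Pdk4 and Slc25a34. Of 27 tested PPAR targets, 10 rose and none fell, and the list's median log2 fold change was 0.19 against -0.0047 over all tested genes. None was called lower by DESeq2 or limma-voom either, and 0 were lower at an unadjusted p under 0.05. At the lower step 8 had risen and the median was 0.17. The list shares higher members, among them Cpt1a, Acadl, Acaa2 and Ech1, with the fatty acid oxidation list.

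Angptl4 read 8.91, 8.25, 10.5 and 10.03 CPM in the 4 libraries without PFOS, 62.8, 59.9, 58.8 and 65.3 CPM at 2 µM, and 208, 212, 195 and 192 CPM at 6 µM. The 3 doses form 3 separate bands, each several times the one before. Its log2 fold change from 2 to 6 µM was 1.71 ± 0.0596 (SE; adjusted p = 1.52e-14 by edgeR), against 2.72 from 0 to 2 µM. On the log2 scale the second step was therefore smaller than the first, with a step difference of -1.005 ± 0.106 (adjusted p = 1.95e-05), and this held in all 20 alternative fits. Counted per µM it was -0.93 (adjusted p = 3.04e-12 by edgeR). In CPM the second step was the larger, with means of 9.42, 61.7 and 201.6 CPM at 0, 2 and 6 µM. Angptl4 lies on chromosome 17 from 33773750 to 33781575, minus strand (GRCm38).

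Pdk4 showed the opposite shape. Its libraries read 23.6, 22.6, 24.8 and 23.6 CPM without PFOS, 28.6, 27.2, 26.3 and 26.2 CPM at 2 µM, and 61.4, 62.8, 64.8 and 66.6 CPM at 6 µM. The step to 6 µM was a log2 fold change of 1.24 ± 0.0592 (SE; adjusted p = 5.84e-12 by edgeR), while the step to 2 µM was 0.19 and not called (adjusted p = 0.102). The step difference of 1.04 ± 0.105 (adjusted p = 1.45e-05) held in all 20 alternative fits. By inhibiting pyruvate dehydrogenase, PDK4 protein spares glucose and favours fat as fuel. The higher step is 4 µM wide and the lower 2 µM, and counted per µM the Pdk4 step difference was still above 0, at 0.21 (adjusted p = 0.0146 by edgeR). Of the 27 PPAR targets, Pdk4 was the 1 gene with a called step difference above 0, and 2, Angptl4 and Fgf21, had one below 0. That of Fgf21 was lost in 12 of 20 alternative fits. Pdk4 lies on chromosome 6 from 5483351 to 5496309, minus strand.

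Plin2, which encodes a coat protein of lipid droplets, read 128, 134, 132 and 141 CPM at 2 µM and 195, 189, 194 and 194 CPM at 6 µM, a 1.44-fold rise (adjusted p = 3.82e-07 by edgeR). Cpt1a, whose product admits long-chain fatty acids to mitochondria, read 129, 124, 123 and 121 CPM at 2 µM and 171, 159, 166 and 181 CPM at 6 µM, a 1.37-fold rise (adjusted p = 1.22e-05). Ucp2, an inner-membrane carrier gene of mitochondria, went from 59.7, 57.6, 54.1 and 55.8 CPM to 90.1, 83.4, 87.9 and 81.3 CPM, 1.51-fold (adjusted p = 2.8e-05). In these 3 genes the bands of the 2 doses were far apart, and all 3 had also risen at the lower step. None of the 3 had a called step difference (adjusted p = 0.447, 0.845 and 0.435 by edgeR).

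Among the enzymes of fatty acid breakdown, Ech1 of the auxiliary pathway for unsaturated chains rose 1.31-fold and the acyl-CoA dehydrogenase gene Acadl 1.23-fold. Acaa2, the thiolase gene of the last reaction, rose 1.18-fold. The Acaa2 call ended in 2 of the 12 fits without 1 library. Of 30 tested fatty acid oxidation genes, 5 rose, none fell, and 22 had a positive log2 fold change. DESeq2 called 1 of the 30 lower, and 2 were lower at an unadjusted p under 0.05, a share like that of all tested genes (1085 of 16038). The count of 5 became 3 without 6 µM replicate 3. The median of 0.08 was smaller than that of the PPAR list. Outside the list, Acadsb, another acyl-CoA dehydrogenase gene, fell (log2 fold change -0.26, adjusted p = 0.0047 by edgeR). That call held in all 12 fits without 1 library.

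Slc25a34, a mitochondrial carrier gene, read 2.30, 2.52, 2.06 and 2.50 CPM at 2 µM and 4.15, 4.65, 6.70 and 5.28 CPM at 6 µM, a 2.21-fold rise (adjusted p = 0.00622 by edgeR). Lipe, which encodes hormone-sensitive lipase, read 5.84, 4.53, 6.11 and 5.85 CPM and then 8.97, 10.3, 7.88 and 10.7 CPM, a 1.7-fold rise (adjusted p = 0.012). The doses did not overlap for either gene, and neither had been called at the lower step. The Lipe call ended without 2 µM replicate 2 (adjusted p = 0.0601) and without 6 µM replicate 4 (0.0636).

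None of the receptor genes was called. Pparg had a log2 fold change of 0.09 (adjusted p = 0.734), Ppard 0.09 (0.645) and Ppara -0.23 (0.932), by edgeR. Ppara was barely detected, at 0.415 CPM at 2 µM and 0.354 CPM at 6 µM. PPAR targets are also expressed in adipocytes, and the 8 adipocyte markers checked summed to 24.9 to 29 CPM at 2 µM and 27.7 to 30.8 CPM at 6 µM. Of those 8, Adipoq and Retn had 0 counts, and Fabp4 and Pparg, which made up nearly all of the sum, were not called by edgeR. Lipe, named above, also belongs to adipocytes and was the 1 called gene of 5 tested in a wider adipocyte list; the part of such cells in the result was not tested. In bulk RNA, more cells of a type and more RNA per cell cannot be told apart.

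**Figure D2:**
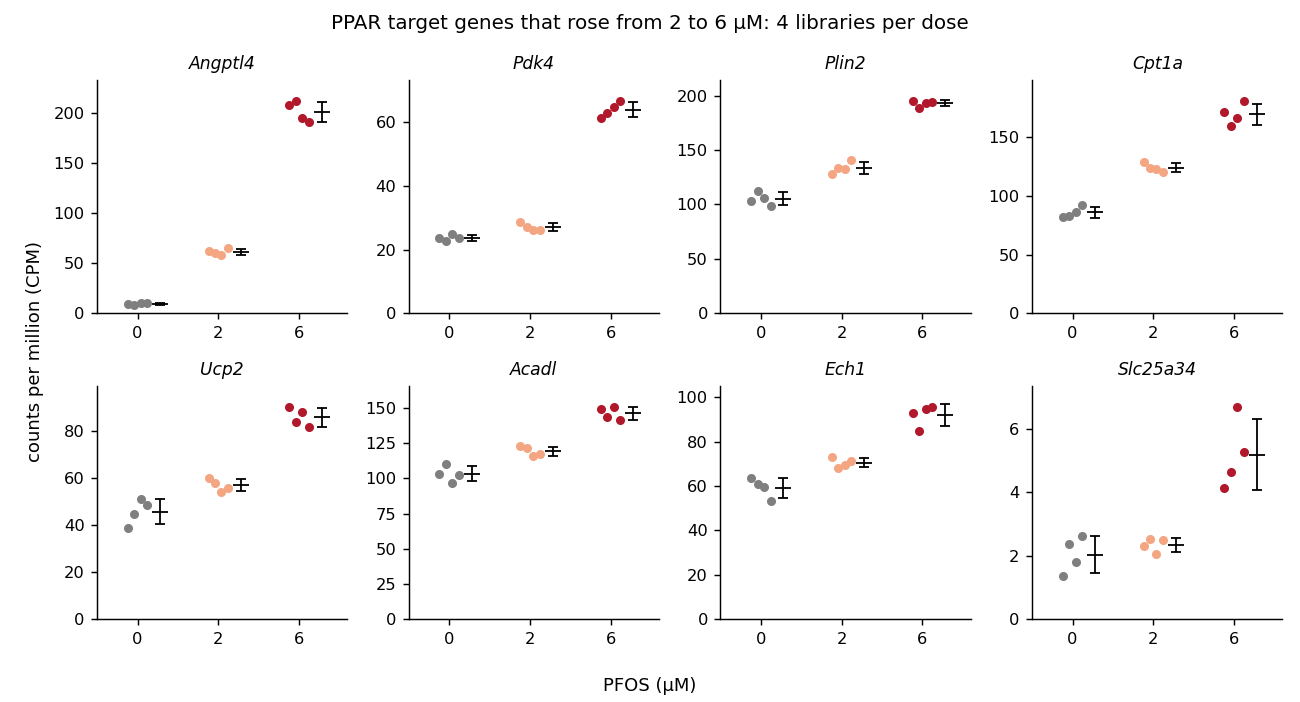
Each panel plots CPM (y axis, from 0) against PFOS dose (x axis, µM) for 1 PPAR target gene; points are the 4 libraries of a dose, and the bar beside them is the mean ± SD. Angptl4 rises over both steps, whereas Pdk4 goes from 26.2 to 28.6 CPM at 2 µM to 61.4 to 66.6 CPM at 6 µM, with the 0 µM libraries just below the 2 µM ones.

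Sterol synthesis is a long chain of enzymes that SREBP controls together. Of 25 tested genes of cholesterol synthesis and uptake, 10 rose, and the log2 fold change was positive in 25 of 25, with a median of 0.17. At the lower step 0 of the 25 were called by edgeR, 1 rose by DESeq2 and by limma-voom, and 4 were higher at an unadjusted p under 0.05, with a median of 0.03. No member had a called step difference by edgeR, the lowest adjusted p being 0.0584 for Insig1, while DESeq2 and limma-voom each called 2 and 10 were higher at an unadjusted p under 0.05, so by edgeR no single gene passed the test of a larger response at the second step.

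Hmgcs1, which encodes the synthase that makes HMG-CoA, read 318, 307, 295 and 294 CPM at 2 µM and 360.5, 338, 387 and 369 CPM at 6 µM, a 1.2-fold rise (adjusted p = 0.00203 by edgeR). Insig1, the feedback regulator that retains SREBP in the endoplasmic reticulum, read 177, 165, 160.4 and 153 CPM and then 207, 198, 204 and 199 CPM, a 1.23-fold rise (adjusted p = 0.00111). In both genes the 4 libraries at 6 µM lay above every library at 2 µM and at 0 µM. Further along the pathway, the squalene epoxidase gene Sqle rose 1.17-fold. Lss, Nsdhl, Tm7sf2, Mvd and Acat2, which act at other points of the pathway, rose 1.14- to 1.3-fold. Srebf2, which encodes the SREBP of this pathway, had a log2 fold change of 0.09 (adjusted p = 0.411). The number of cholesterol genes called depended on single libraries: it was 5, 5 and 4 on leaving out 2 µM replicate 2, 3 or 4, and 5, 4 and 4 on leaving out 6 µM replicate 1, 3 or 4. Hmgcs1, Insig1 and Sqle were called in all 12 of those fits.

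SREBP also controls the synthesis of fatty acids and triglycerides. Of 23 tested genes of that list, 7 rose and none fell, with a median of 0.09, and 0 were lower by DESeq2, by limma-voom or at an unadjusted p under 0.05. At the lower step 2 had risen. Fasn, the fatty acid synthase gene, read 416, 373, 407 and 366 CPM at 2 µM and 520.4, 478, 527 and 551 CPM at 6 µM, a 1.33-fold rise (adjusted p = 0.00165 by edgeR). The 0 µM libraries of Fasn ranged from 346 to 469 CPM, so the 6 µM values stood above both lower doses. Scd1, a desaturase gene, rose 1.19-fold, from 815 to 846 CPM up to 932 to 1014 CPM, and Lpin1, a phosphatidate phosphatase gene, rose 1.31-fold. Acly, which makes cytosolic acetyl-CoA from citrate, rose 1.2-fold, Acaca, which commits it to fatty acids, 1.18-fold, and the elongase gene Elovl6 1.17-fold, while Agpat3, an acyltransferase gene, rose 1.22-fold after a rise at the lower step. The count of 7 was 4 without 2 µM replicate 4, 6 µM replicate 3 or 6 µM replicate 4. Dgat2, a triglyceride synthesis gene called higher at the lower step, had a log2 fold change of -0.07 at the higher one.

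**Figure D3:**
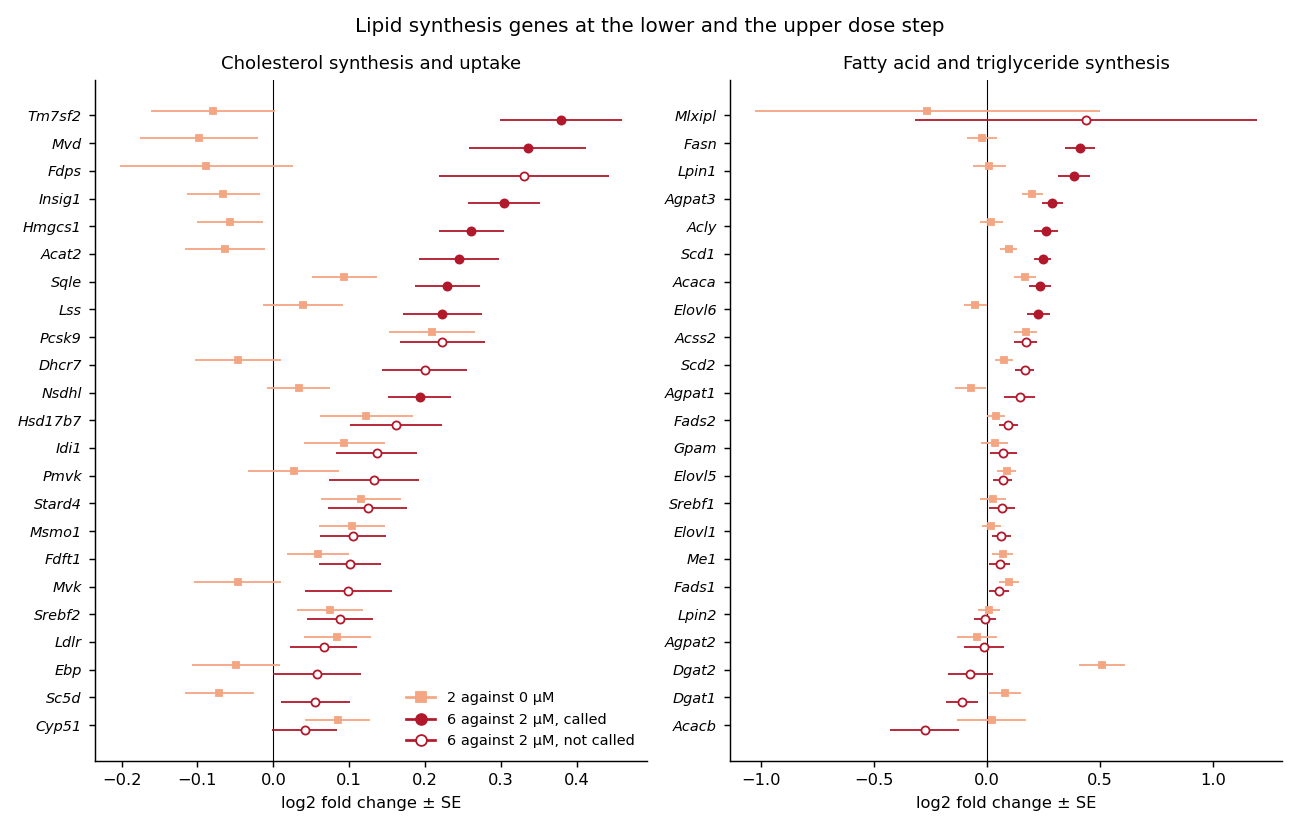
Points are log2 fold changes with SE (x axis) for tested genes of cholesterol synthesis and uptake (left) and fatty acid and triglyceride synthesis (right); squares are 2 against 0 µM, circles 6 against 2 µM, filled where called by edgeR. The circles of the cholesterol genes plotted all lie right of 0, while the squares lie on both sides of it.

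The Hmgcs1 promoter is printed because it carries the sequence through which sterols are known to act on this gene, an SREBP site, together with CCAAT boxes that bind NF-Y. The 250 bases before the RefSeq start on GRCm38.p6 (chr13:119690101-119690350, plus strand) follow, with matches to TCACNCCAC and CCAAT on either strand in capitals.
Hmgcs1: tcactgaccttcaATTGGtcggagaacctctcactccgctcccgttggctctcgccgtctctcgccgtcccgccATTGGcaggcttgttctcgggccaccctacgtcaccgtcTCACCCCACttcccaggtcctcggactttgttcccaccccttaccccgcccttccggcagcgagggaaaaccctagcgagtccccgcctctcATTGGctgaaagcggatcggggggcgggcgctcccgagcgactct

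Windows of 300 bases, 250 before and 50 after the start, were searched for these letters in 32851 RefSeq promoters. These hold several windows for some genes, whereas each listed or called gene counted with 1 window, that nearest its start in the deposited table. Of the 25 cholesterol genes, 17 had such a window, and 15 of these (88.2%) held CCAAT, against 37.4% of all promoters. Over all called genes with a window, CCAAT was in 33 of 70 that rose (47.1%) and 32 of 67 that fell (47.8%), so it did not separate the 2 directions. CCAAT was also in 16 of 18 promoters of endoplasmic reticulum chaperone genes, none of which was called by edgeR, DESeq2 or limma-voom (1 was higher and 2 lower at an unadjusted p under 0.05). The SREBP site TCACNCCAC was found in 1 of the 17, Hmgcs1, and in 1.24% of all promoters. The PPAR element, a direct repeat of AGGTCA with 1 base between, was in none of 20 PPAR target promoters and in 0.0396% of all. The exact letters are so rare, in 13 of 32851 promoters, that their absence from 20 carries no information. Angptl4 had no window and was not among the 20. A window without these letters says nothing of more distant sites.

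In 11 genes the higher step turned the lower one back. Cyr61, Ankrd1, Ptx3, Csf1, Gadd45a, Nupr1, Tsc22d3, Pnrc2 and Tlk2 rose from 0 to 2 µM and fell from 2 to 6 µM, and Efna3 and Txnip fell and then rose. All 11 also had a called step difference in the matching direction, a test on the same libraries. Choosing genes by opposite calls fixes the sign of that difference and favours its call, so it adds no separate support. It was lost in 11 of 20 alternative fits for Pnrc2 and 6 for Tlk2, and in at most 2 for the others. Against 0 µM, none of the 11 was called at 6 µM by edgeR, DESeq2 or limma-voom, and 2 had an unadjusted p under 0.05, with log2 fold changes from -0.07 to 0.21. Over all tested genes that comparison called 1322 (8.24%), 735 higher (4.58%) and 587 lower (3.66%). At 4 libraries a dose a difference that misses the threshold does not show equal levels. Genes chosen for 2 steps that run opposite ways also tend to end near their 0 µM level by that choice alone.

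Cyr61, also called Ccn1, encodes a secreted matricellular protein and is a widely used YAP target. It read 350.2, 352, 374 and 331 CPM without PFOS, 482, 458, 468 and 483 CPM at 2 µM, and 383, 392, 369.5 and 338 CPM at 6 µM. The 2 µM libraries form a band above all 8 others, and the 0 and 6 µM libraries overlap. The fall from 2 to 6 µM was a log2 fold change of -0.35 ± 0.0461 (SE; adjusted p = 0.000188 by edgeR) and the step difference was -0.78 ± 0.0787 (adjusted p = 1.45e-05). Cyr61 lies on chromosome 3 from 145646976 to 145649981, minus strand, on GRCm38.

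Ankrd1, a muscle ankyrin repeat gene that YAP and mechanical load are known to induce, followed the same course. Its libraries read 278, 243, 264 and 231 CPM, then 329, 316, 326 and 365 CPM, then 264, 292, 269 and 259 CPM. It fell 1.23-fold at the higher step (adjusted p = 0.00656 by edgeR), and the highest library at 6 µM was below the lowest at 2 µM. Ptx3, which encodes the secreted pentraxin of innate immunity, went from 74.8 to 92.0 CPM without PFOS to 115, 117, 119 and 147 CPM at 2 µM, and read 89.3, 97.7, 92.7 and 76.0 CPM at 6 µM. Its fall of 1.4-fold (adjusted p = 0.00268) was between groups that did not overlap: the lowest 2 µM value was above the highest 6 µM value.

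Efna3, an ephrin-A ligand gene, ran the other way at low levels. It read 5.57, 5.91, 5.198 and 3.52 CPM, then 3.13, 2.75, 2.40 and 2.41 CPM, then 5.33, 4.70, 5.06 and 6.02 CPM, a 1.97-fold rise at the higher step (adjusted p = 0.0044 by edgeR). The 2 µM libraries were the lowest 4 of the 12. Its step difference was 1.90 ± 0.315 (adjusted p = 0.00639 by edgeR), and 0.0674 was the highest adjusted p among its alternatives. Txnip, an inhibitor of thioredoxin and of glucose uptake, read 13.96, 10.6, 13.2 and 12.6 CPM at 2 µM and 20.3, 19.9, 19.5 and 15.8 CPM at 6 µM, a 1.5-fold rise (adjusted p = 0.00228). Without PFOS it read 15.3 to 16.9 CPM, above all 2 µM libraries and overlapping the lowest of the 6 µM ones.

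The turn of Cyr61, Ankrd1, Ptx3 and Efna3, called at both steps, was found in all 20 alternative fits. For the other 7 genes it depended on the libraries: of the 12 fits without 1 library, both calls held in 7 for Csf1, 4 for Nupr1 and Tsc22d3, 3 for Gadd45a and 2 each for Pnrc2, Tlk2 and Txnip. Csf1 encodes a macrophage growth factor, Gadd45a a DNA damage and stress protein, Nupr1 a stress-induced chromatin protein and Tsc22d3 the glucocorticoid-induced leucine zipper protein. Gadd45a read 139, 135, 128 and 152 CPM at 2 µM and 112, 122, 116 and 90.4 CPM at 6 µM, and Tsc22d3 read 119, 123, 112 and 128 CPM and then 104, 99.0, 98.4 and 89.4 CPM, with no overlap in either gene. Csf1 went from 434, 445, 478 and 487 CPM to 395, 428, 388 and 404 CPM, a 1.14-fold fall whose groups lie close together (adjusted p = 0.0317 by edgeR). Pnrc2 and Tlk2, a nuclear receptor coactivator and a chromatin assembly kinase gene, each fell 1.15-fold. The number of genes that rose and then fell, 9, was 4 without 0 µM replicate 2. It was 5, 4 and 3 on leaving out 2 µM replicate 2, 3 or 4, and 4, 3 and 3 on leaving out 6 µM replicate 1, 3 or 4. It was 15 without 0 µM replicate 1 or 6 µM replicate 2. The number that fell and then rose, 2, was 5 and 6 without 0 µM replicate 1 and 2 µM replicate 1, and 1 without 0 µM replicate 2 or 3, 2 µM replicate 2 or 4, or 6 µM replicate 2 or 3.

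**Figure D4:**
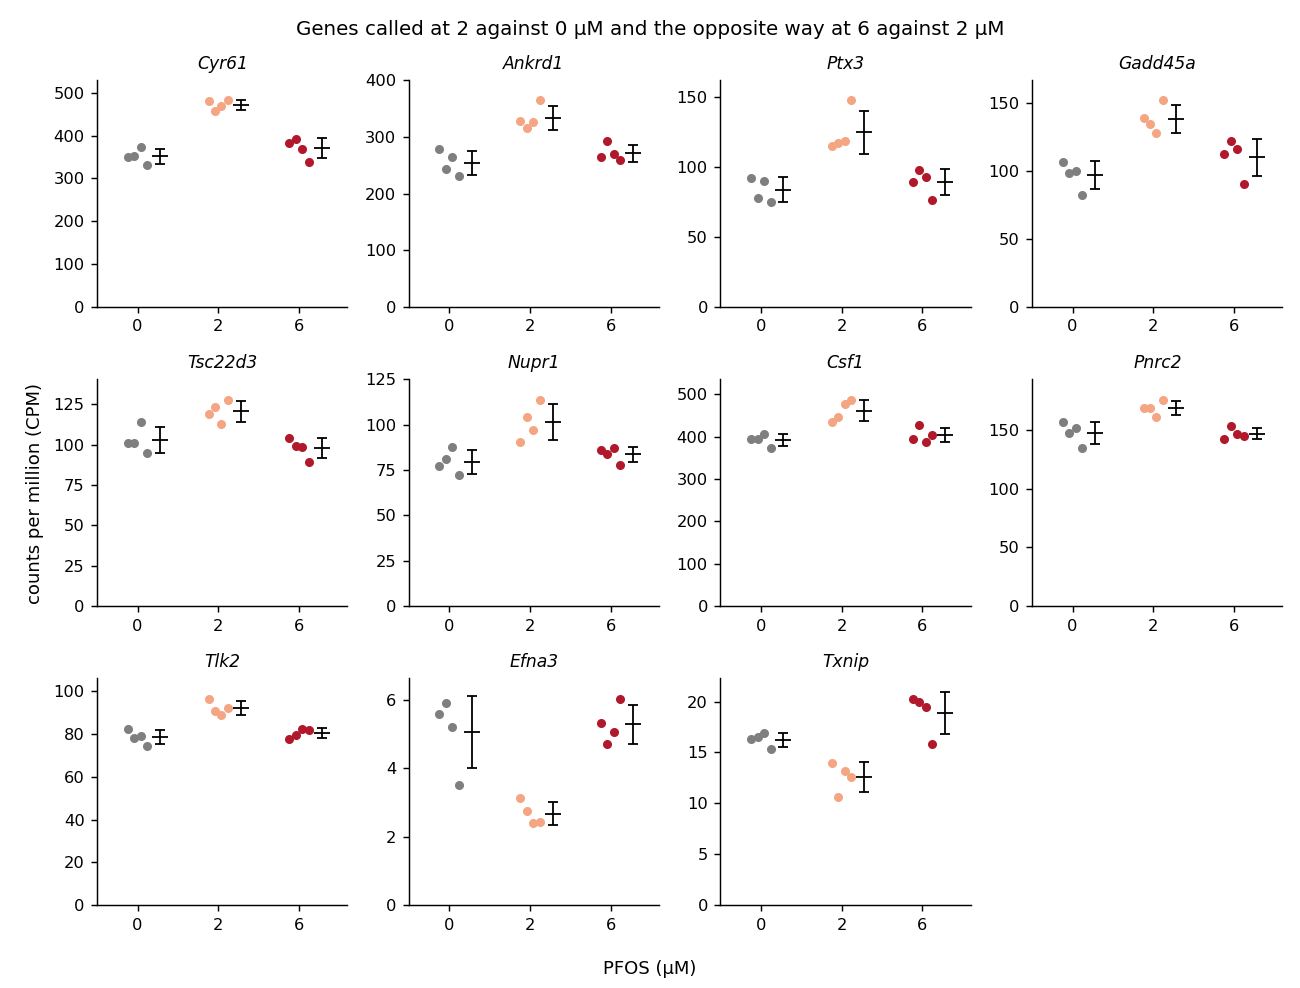
Each panel plots CPM (y axis, from 0) against PFOS dose (x axis, µM) for 1 of the 11 genes called in opposite directions at the 2 steps; points are the 4 libraries of a dose, and the bar beside them is the mean ± SD. In Cyr61 the 2 µM libraries, 458 to 483 CPM, stand above all others, and in Efna3 they are the lowest.

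Thbs1, which encodes the matrix protein thrombospondin 1, joined the fall without a called rise before it. It read 2022, 1890, 2178 and 2100 CPM without PFOS, 2181, 2120, 2227 and 2263 CPM at 2 µM and 1746, 1723, 1692 and 1668 CPM at 6 µM. All 4 libraries at 6 µM were below all 8 others. Its log2 fold change from 2 to 6 µM was -0.36 ± 0.0377 (SE; adjusted p = 6.75e-06 by edgeR), against 0.10 at the lower step (adjusted p = 0.187), and the step difference of -0.47 (adjusted p = 0.000901) held in all 20 alternative fits. Of 19 tested YAP and SRF targets, 4 fell, namely Thbs1, Cyr61, Ankrd1 and Amotl2, and none rose, with a median of -0.09. None was called higher by DESeq2 or limma-voom, and 1 was higher at an unadjusted p under 0.05. At the lower step 4 of the 19 had risen and none fell, with a median of 0.10. Amotl2, an angiomotin gene whose product restrains YAP, fell 1.2-fold, and its adjusted p was 0.0809 without 0 µM replicate 1 and 6 µM replicates 2 and 3. Ctgf, another YAP target, read 16.96, 15.1, 18.6 and 18.9 CPM and then 13.3, 14.6, 14.1 and 12.6 CPM, but did not pass (adjusted p = 0.0692 by edgeR). Ctgf had risen at the lower step (log2 fold change 0.46, adjusted p = 0.0106 by edgeR). Its step difference of -0.80 was called (adjusted p = 0.0252 by edgeR) and was lost in 5 of 20 alternative fits.

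The promoters of Cyr61, Ankrd1 and Acta2 are printed to show the MCAT element, CATTCC, to which TEAD proteins are known to bind, in genes that fell. Each line gives the 250 bases before the RefSeq start on GRCm38.p6, all on the minus strand: chr3:145649986-145650235 for Cyr61, chr19:36119845-36120094 for Ankrd1 and chr19:34255374-34255623 for Acta2. Capitals mark CATTCC or its reverse complement.
Cyr61: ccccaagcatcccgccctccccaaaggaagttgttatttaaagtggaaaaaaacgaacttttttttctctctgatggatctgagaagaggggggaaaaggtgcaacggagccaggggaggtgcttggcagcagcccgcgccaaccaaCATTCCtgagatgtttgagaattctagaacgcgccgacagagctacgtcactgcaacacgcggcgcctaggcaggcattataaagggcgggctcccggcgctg
Ankrd1: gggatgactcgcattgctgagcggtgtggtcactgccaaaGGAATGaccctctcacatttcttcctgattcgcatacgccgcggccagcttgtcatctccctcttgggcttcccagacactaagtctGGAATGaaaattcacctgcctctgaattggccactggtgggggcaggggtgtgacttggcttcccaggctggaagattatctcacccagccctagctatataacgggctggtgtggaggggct
Acta2: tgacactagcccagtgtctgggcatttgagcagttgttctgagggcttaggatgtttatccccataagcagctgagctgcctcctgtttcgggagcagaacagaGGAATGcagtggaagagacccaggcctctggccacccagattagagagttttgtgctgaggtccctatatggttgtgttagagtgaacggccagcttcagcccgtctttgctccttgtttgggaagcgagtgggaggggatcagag

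CATTCC on either strand was in 10 of 14 YAP and SRF target promoters with a window (71.4%), against 14.7% of all promoters of this length. It was in 12 of 67 promoters of genes that fell (17.9%) and in 2 of 70 of genes that rose (2.86%). The share among genes that fell is near that of all promoters, and the 3 printed promoters were picked as holding the element. Axl, Vcl and Ajuba, YAP and SRF targets that were not called, hold it too. A match describes the letters in the window and is not a bound site.

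None of the stress response genes that had risen at the lower step was called higher at the higher one. Ptgs2, the inducible cyclooxygenase gene, read 71.5 to 91.9 CPM without PFOS, 106 to 128 CPM at 2 µM and 94.8 to 106 CPM at 6 µM. Its 6 against 2 µM change did not pass (log2 fold change -0.24, adjusted p = 0.112 by edgeR), but the step difference of -0.80 did (adjusted p = 0.00195), in all 20 alternative fits. Ppp1r15a, whose product helps to end the integrated stress response, rose at the lower step and had a step difference of -1.09 (adjusted p = 0.00151 by edgeR), also in all 20 alternative fits. It read 33.5 to 39.6 CPM, then 55.7 to 75.7 CPM, then 41.7 to 54.0 CPM. Of the stress response list, 16 of 34 genes had risen from 0 to 2 µM, while from 2 to 6 µM none rose and 3 fell, with medians of 0.19 and -0.05. Against 0 µM, 12 of the 34 were called higher at 6 µM and 1 lower by edgeR, with a median of 0.14. Ptgs2 and Ppp1r15a were likewise called higher at 6 than at 0 µM (adjusted p = 0.00428 and 0.00231 by edgeR), so neither had returned to its 0 µM level. DESeq2 and limma-voom called none of the 34 higher at the higher step, and 1 was higher at an unadjusted p under 0.05. The 3 that fell, Herpud1, Chac1 and Nupr1, did so by 1.13- to 1.21-fold, and none of them was called without 2 µM replicate 2, 3 or 4 or without 6 µM replicate 1 or 4. The number that fell was 1 without 0 µM replicate 2 or 6 µM replicate 3, and 5 without 0 µM replicate 4.

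The 36 lower step differences became 67 and 22 on leaving out 0 µM replicate 1 or 2. They became 14, 16 and 8 on leaving out 2 µM replicate 2, 3 or 4, and 23, 23 and 21 on leaving out 6 µM replicate 1, 3 or 4. The 5 higher ones, Pdk4, Efna3, Txnip and the pseudogenes Gm5854 and Rps13-ps2, became 29 without 0 µM replicate 1 and 11, 3 and 2 without 2 µM replicates 1, 2 and 4. Rps13-ps2 closely resembles a ribosomal protein gene, so its counts are uncertain, and its step difference was lost in 14 of 20 alternative fits.

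Acta2 and Myl9, contractile genes of the smooth muscle type, fell. Acta2, the smooth muscle actin gene that myoblasts also express, read 382, 386, 397 and 409 CPM at 2 µM and 290.3, 285, 293 and 273 CPM at 6 µM. The doses form separate bands, and the fall was a log2 fold change of -0.46 ± 0.038 (SE; adjusted p = 1.87e-07 by edgeR). It followed a smaller called fall at the lower step, -0.18. Myl9, a regulatory myosin light chain gene, read 9.56, 9.66, 7.43 and 9.04 CPM and then 5.19, 4.90, 4.28 and 5.49 CPM, a 1.8-fold fall (adjusted p = 0.000591), with no called change before. Of 16 tested genes of this list 2 fell and none rose, with a median of -0.11, and 3 had a positive log2 fold change. None rose by DESeq2 or limma-voom, and 1 was higher at an unadjusted p under 0.05. Markers of smooth muscle cells were in part lower as well: Cnn1 was at 1.12 CPM at 2 µM and 0.638 CPM at 6 µM, Lmod1 at 3.18 and 2.18 CPM, and Actg2 at 15.8 and 13.5 CPM. Of the 4 such markers tested, none was called by edgeR, DESeq2 or limma-voom, 3 were lower at an unadjusted p under 0.05 and the median was -0.39. The fourth, Smtn, at 124 and 129 CPM, made up most of the sum of 139 to 146 CPM at 2 µM and 137 to 149 CPM at 6 µM, and Myh11, the defining marker, was near 0, at 0.192 and 0.141 CPM; their part in the result was not tested.

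Genes of the skeletal sarcomere had a median log2 fold change of -0.23 over 31 tested, with 1 called lower, Ttn, and 5 positive. Ttn, the giant spring protein of the sarcomere, read 38.6, 33.5, 43.1 and 39.9 CPM at 2 µM and 26.4, 30.9, 22.2 and 32.9 CPM at 6 µM, a 1.38-fold fall (adjusted p = 0.0339 by edgeR). That call ended without 2 µM replicate 1, 3 or 4 or 6 µM replicate 1 or 3, with adjusted p values up to 0.129, while 3 sarcomere genes were called without 6 µM replicate 2. The list's median had been -0.36 at the lower step, where 3 genes fell. Mylk3, a myosin light chain kinase gene, read 9.56, 10.7, 10.4 and 8.42 CPM and then 6.64, 6.57, 6.75 and 6.25 CPM, a 1.49-fold fall (adjusted p = 0.0104), and its adjusted p was 0.0501 without 2 µM replicate 2. Myod1 and Myog, which drive muscle differentiation, had log2 fold changes of -0.27 (adjusted p = 0.105) and -0.43 (0.226), and DESeq2 called Myod1 lower (0.0375). Of 25 myogenic regulator and fusion genes 1 was called, the homeobox gene Six4, and that call ended whichever of the 8 libraries at 2 or 6 µM was left out.

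Matrix and growth factor genes also fell in part. Of 34 tested extracellular matrix genes 7 fell, namely Thbs1, Col11a1, Ogn, Postn, Col8a1, Col1a2 and Col12a1, and none rose, while the median was -0.03. DESeq2 and limma-voom each called 1 matrix gene higher. Ogn, a small leucine-rich proteoglycan gene, fell 1.55-fold, from 142 to 201 CPM at 2 µM to 92.9 to 139.6 CPM at 6 µM, close to overlapping. Col11a1, a fibrillar collagen gene, read 518, 486, 492 and 505 CPM and then 412, 401, 426 and 427 CPM, a 1.2-fold fall (adjusted p = 0.000634 by edgeR). The count of 7 was 4 without 2 µM replicate 4 or 6 µM replicate 1, while Ogn and Col11a1 were called in all 12 fits. The 6 fibroblast markers checked summed to 21.1 to 26.2 CPM at 2 µM and 23.6 to 26.2 CPM at 6 µM, mostly from Pdgfra, at 19 and 20.5 CPM, with Thy1 at 8 counts in all at 2 µM and 0 at 6 µM. A wider fibroblast list that includes the collagen genes Col1a1 and Col3a1 summed to 6220 to 7090 CPM at 2 µM and 5910 to 6280 CPM at 6 µM, with a median of -0.12 and 2 of 7 tested genes positive. None of the 7 was called by edgeR, DESeq2 or limma-voom, and 1 was lower at an unadjusted p under 0.05; their part in the result was not tested.

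Of 19 tested genes of TGF-beta, BMP and activin signalling, 3 fell and 1 rose, with a median of -0.11, and the rise was not called without 2 µM replicate 2, 3 or 4 or 6 µM replicate 1 or 4. The ligand genes Bmp4, Tgfb3 and Tgfb2 fell 1.31-, 1.23- and 1.18-fold. Bmp4 went from 85.6, 88.7, 95.4 and 83.4 CPM to 67.4, 64.1, 68.0 and 70.2 CPM (adjusted p = 0.00019 by edgeR). The Tgfb2 call ended in 7 of the 12 fits without 1 library, with adjusted p values up to 0.127 by edgeR. Of 19 tested genes of the IGF and insulin axis 2 fell and none rose, while 12 were positive and the median was 0.02. DESeq2 and limma-voom called none of the 19 higher, and 2 were higher at an unadjusted p under 0.05. The 2 that fell were Igfbp3 and Igfbp5, which encode binding proteins that hold IGFs, by 1.33- and 1.19-fold. Igfbp3 read 62.1, 60.4, 67.6 and 65.5 CPM without PFOS, 47.3, 45.2, 45.6 and 46.6 CPM at 2 µM and 34.0, 36.5, 36.2 and 32.4 CPM at 6 µM, in 3 bands that go down with dose. H19, an imprinted long noncoding RNA abundant in myoblasts, went from 798, 811, 799 and 786 CPM to 611, 607, 606 and 632 CPM, a 1.3-fold fall (adjusted p = 2.48e-06).

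**Figure D5:**
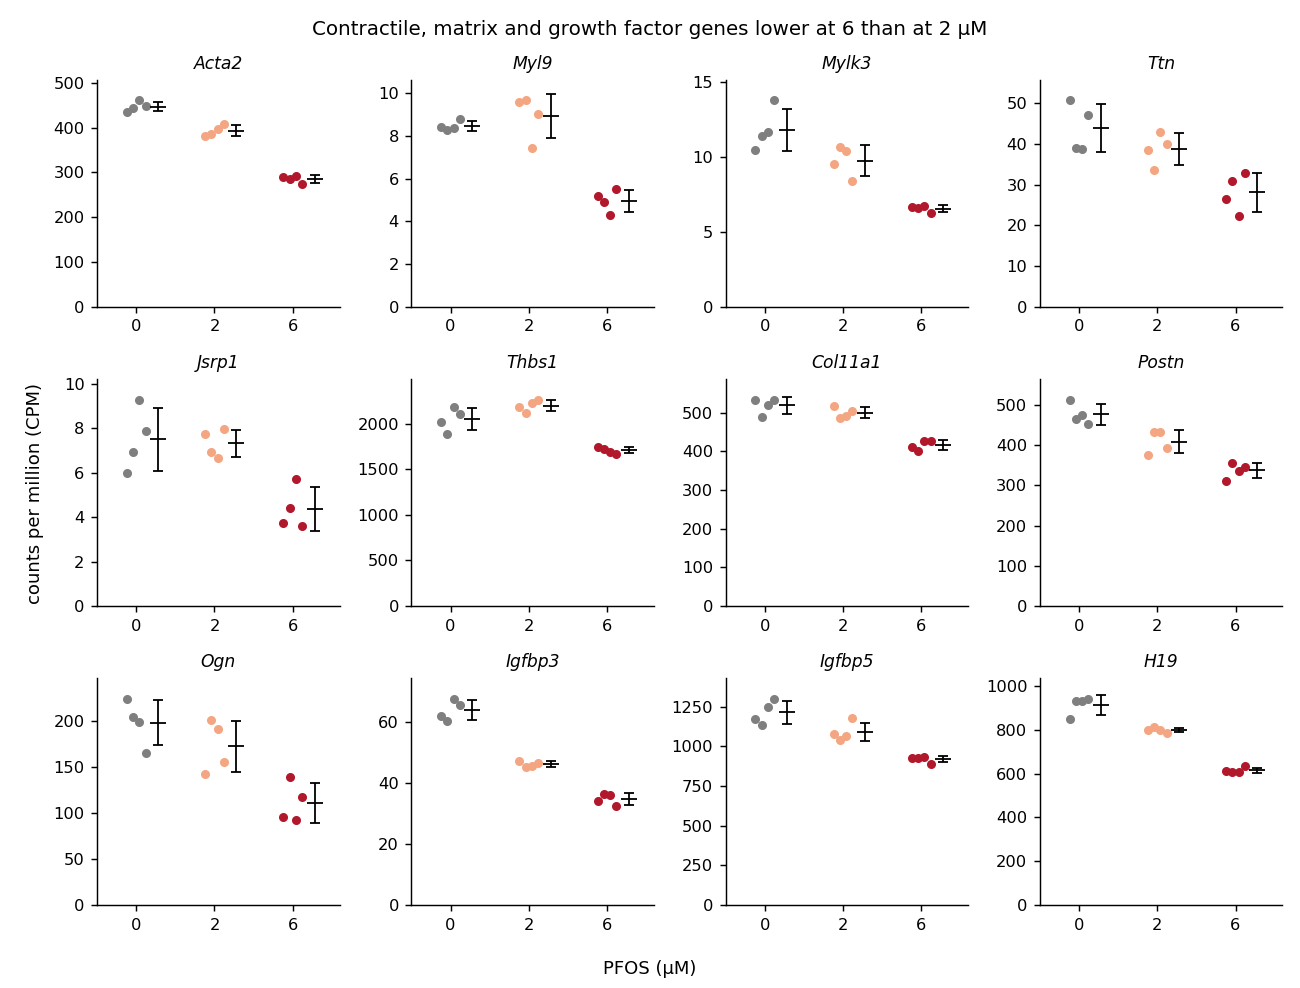
Each panel plots CPM (y axis, from 0) against PFOS dose (x axis, µM) for a contractile, matrix or growth factor gene that fell from 2 to 6 µM; points are the 4 libraries of a dose, and the bar beside them is the mean ± SD. Acta2, Igfbp3 and H19 go down in 3 bands, while the means of Myl9 and Thbs1 at 2 µM are not below those without PFOS.

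NRF2 controls genes of defence against oxidants. Of 25 tested NRF2 targets, 5 rose (Esd, Pgd, Hmox1, G6pdx and Ftl1), none fell, 23 were positive and the median was 0.12, against 1 risen and a median of 0.02 at the lower step. None was called lower by DESeq2 or limma-voom, and 0 were lower at an unadjusted p under 0.05. Pgd and G6pdx, which make NADPH in the pentose phosphate pathway, rose 1.24- and 1.15-fold, and Hmox1, the heme oxygenase gene, rose 1.19-fold. The libraries of Pgd read 122, 114, 111 and 111 CPM at 2 µM and 145, 138, 143 and 142 CPM at 6 µM, without overlap. Esd, an esterase gene of formaldehyde removal, rose 1.24-fold, from 242 to 262 CPM up to 304 to 326 CPM (adjusted p = 0.000299 by edgeR). The count of 5 was 3 without 6 µM replicate 1 or 4, and the Ftl1 call ended in 8 fits, while Esd, Pgd and Hmox1 were called in all 12 fits without 1 library.

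Of 19 tested heat shock and cytosolic chaperone genes 3 rose, 18 were positive and the median was 0.12. Hsp90ab1 read 4061, 3947, 3823 and 3876 CPM at 2 µM and 4410, 4249, 4538 and 4408 CPM at 6 µM, a 1.12-fold rise (adjusted p = 0.00468 by edgeR). Hsph1, which encodes a nucleotide exchange factor of HSP70, rose 1.28-fold. Hspb8, a small heat shock protein gene, rose 1.18-fold, and its call ended in 7 of the 12 fits without 1 library (adjusted p up to 0.162).

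Other lists had few calls or none. Of 49 nuclear genes of oxidative phosphorylation 0 were called by edgeR, DESeq2 or limma-voom, 1 was higher and 1 lower at an unadjusted p under 0.05, and the median was 0.00015. The 15 mitochondrially encoded genes had 0 calls by the same 3 tools and 1 higher at an unadjusted p under 0.05. None of 24 cell cycle genes was called by the 3 tools, with 4 higher at an unadjusted p under 0.05. Aminoacyl tRNA synthetases, 8 of 20 of which had risen at the lower step, had 0 calls by edgeR and limma-voom and 2 higher by DESeq2 at the higher step, with 4 higher at an unadjusted p under 0.05. Of 29 immediate early genes, 8 had risen at the lower step, and 1, the zinc finger gene Klf10, rose at the higher one. Klf10, a transcriptional repressor, read 41.0, 35.7, 41.6 and 37.5 CPM and then 60.7, 57.6, 55.7 and 53.7 CPM, a 1.46-fold rise (adjusted p = 3.98e-05 by edgeR) after a rise of 0.49 on the log2 scale at the lower step. The immediate early list had 3 without 0 µM replicate 1 and 2 without 0 µM replicates 3 or 4 or 6 µM replicates 2 or 3.

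Muscle calcium handling genes had a median of -0.18 over 17 tested, with 1 positive and 1 called, Jsrp1, a gene of the muscle junctional membranes. Jsrp1 read 7.74, 6.95, 6.68 and 7.95 CPM at 2 µM and 3.74, 4.40, 5.73 and 3.58 CPM at 6 µM, a 1.68-fold fall (adjusted p = 0.022 by edgeR) that ended in 4 of the 12 fits without 1 library (adjusted p up to 0.0929). In other lists single genes were called: Mybbp1a of ribosome biogenesis rose 1.12-fold among 33 tested, and Zmat3 of the p53 targets rose 1.2-fold while Gadd45a, named above, fell, among 16 tested. The call of Mybbp1a ended in 8 and that of Zmat3 in 4 of the 12 fits without 1 library. Glycolysis genes had 1 higher call of 32 tested, Txnip, with 3 without 0 µM replicate 1 and 2 without 0 µM replicate 2 or 6 µM replicate 2, and DESeq2 called 3 higher and 1 lower.

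Large changes outside these groups were few. Cyp26b1, whose product clears retinoic acid, read 4.10, 4.51, 3.57 and 3.17 CPM and then 9.38, 7.40, 8.76 and 8.69 CPM, a 2.23-fold rise (adjusted p = 0.000138 by edgeR). The gene Avil, which encodes the actin-binding protein advillin, went from 7.84, 7.25, 8.36 and 7.995 CPM to 14.6, 11.2, 13.7 and 12.1 CPM, 1.64-fold (adjusted p = 0.00426). AU018091 rose 2.66-fold from 1.102 to 1.58 CPM up to 2.40 to 4.88 CPM, and its adjusted p was 0.0744 without 6 µM replicate 4. Clca2, a chloride channel regulator gene, fell 2.04-fold, from 2.68 to 3.23 CPM down to 1.20 to 1.65 CPM, and Aoc3, which encodes a cell-surface amine oxidase, fell 1.64-fold. None of these 5 had a called step difference by edgeR (adjusted p from 0.319 to 0.756). Dnah6, an axonemal dynein gene, read 0.765 to 1.04 CPM without PFOS, 2.30 to 3.54 CPM at 2 µM and 4.57 to 6.22 CPM at 6 µM, in 3 bands that go up with dose (1.87-fold at the higher step, adjusted p = 0.0172 by edgeR). Il23r, an interleukin receptor gene, fell 1.69-fold, St18, a zinc finger gene, 1.66-fold, and Izumo4 2-fold, none of them called at the lower step. The calls of Kank3 (1.56-fold higher), Zfp329 (1.53-fold lower) and Zmat1 (1.4-fold lower) ended in 9, 7 and 9 of the 12 fits without 1 library, and those of Dnah6, St18, Il23r and Izumo4 in 3, 5, 6 and 6. The 2 largest falls by size, of the pseudogene Gm44126 and the long noncoding Gm17484, both looked at after their values were seen, had single libraries at 2 µM far above the rest, at 15.1 and 15.3 CPM and at 1.24 CPM. Their calls ended in 7 and 11 of the 12 fits without 1 library.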

How the data were processed

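Gene-level read counts of 12 libraries, with gene symbols, coordinates and biotypes, were deposited by the authors. Per the submitters' processing notes, the reads were aligned with HISAT2 to GRCm39. Of 54495 genes shared with GENCODE mouse release M21, however, 98.3% have that release's GRCm38 coordinates in the deposited table, so coordinates are given as GRCm38. Aligner version, counter, strand setting and annotation: not given in the sources used here. Thus overlapping genes, antisense genes and near-identical copies may share reads.

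The deposited counts were fitted with edgeR 4.0.16 in R 4.3.3, with TMM scaling, filterByExpr by dose (16038 of 54532 genes kept) and 1 mean per dose over all 12 libraries, leaving 9 residual degrees of freedom. Quasi-likelihood tests gave 6 against 2 µM, 2 against 0 µM, 6 against 0 µM and the step difference, with Benjamini-Hochberg adjustment over all tested genes and calls at an adjusted p under 0.05. The common biological coefficient of variation was 10.8%. No 2 libraries of a dose agreed within sampling noise. The fitting code was tested on simulated data. Alternatives were upper-quartile and RLE scaling, no count filter, a mean count of at least 50, DESeq2 1.42.0, limma-voom (limma 3.58.1), the 8 libraries alone, a replicate block, each library left out in turn, a step difference per µM and, chosen after seeing the data, a fit without the 3 libraries farthest from their dose mean (0 µM replicate 1 and 6 µM replicates 2 and 3).

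The comparison and the gene lists were chosen with earlier results of these data known. Named genes were first the 12 largest changes each way at 6 against 2 µM. These were drawn from called genes whose mean log2 CPM reached 1 and whose doses did not overlap, without pseudogenes or unnamed loci. By smallest p, and without the limits on level and overlap, up to 2 called genes per list and up to 10 reversed each way were added. So were up to 5 called step differences each way, without pseudogenes or unnamed loci. Ppara, Ppard, Pparg, Myod1 and Myog were named whatever their p. Other genes are members of the lists or were picked after their values were seen. Promoter sequences are RefSeq's, on GRCm38.p6. Results for some genes of the lists are not reported here.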

Additional observations from a re-analysis of the deposited data

Results flagged for a closer look

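Of 198 groups of 4 libraries examined, over the CPM of named genes and 4 library measures (total count, genes detected, and shares of mitochondrial and protein-coding counts), 3 had 1 library far from the rest by Dixon's criterion, and chance alone marks about 1 group in 20. Lipe at 2 µM had its lowest value in replicate 2, 4.528 CPM, with the nearest library at 5.84 CPM. Igfbp5 at 6 µM had its lowest value in replicate 4, 891.5 CPM, with the nearest at 927.4 CPM. Ptx3 at 2 µM had its highest value in replicate 4, 147.4 CPM, with the nearest at 118.7 CPM. In each of the 3 genes the 2 and 6 µM libraries did not overlap, which the naming rule asks of Lipe and Ptx3, named among the largest changes, but not of Igfbp5.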

How the results depend on the processing

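From 2 to 6 µM, the 90 higher and 88 lower genes became 177 and 224 without a count filter, 229 and 216 by DESeq2, and 174 and 133 with the 8 libraries alone. Without the 3 libraries farthest from their dose mean 55 were lower. Leaving out 1 library gave 45 to 138 higher and 33 to 121 lower. Step differences, 5 higher and 36 lower, became 50 and 160 without a filter, 43 and 131 by DESeq2, 13 and 61 by limma-voom, and 10 and 60 per µM. The higher ones were 12 at a mean count of at least 50 and 19 without the 3 libraries. Leaving out 1 library gave 2 to 29 and 8 to 67. From 0 to 2 µM, 258 and 119 became 438 and 193 without a filter and 524 and 227 by DESeq2, with 72 to 322 and 34 to 168 on leaving out 1 library. Genes that rose and then fell, 9, were 48 without a filter, 31 by DESeq2, 15 by limma-voom and 3 to 15 on leaving out 1 library. Genes that fell and then rose, 2, were 12, 10 and, by RLE scaling, 1, and 1 to 6 on leaving out 1 library. The cause of these shifts was not tested. Replicate numbers are shared between doses, but same-numbered libraries did not deviate together (correlations from -0.0254 to 0.0137). With them as a replicate block, 69 genes were higher and 54 lower from 2 to 6 µM, 4 and 19 had a step difference, 192 and 81 were called from 0 to 2 µM, 4 rose and then fell, and 1 fell and then rose. Of the 178 calls, the block shared 118, DESeq2 174, limma-voom 174 and the fit without the 3 libraries 107. Of 57 called genes named by the rule, 33 were called in all 21 alternatives and 24 were lost in at least 1, and none changed direction. At 4 libraries a dose, small changes in weakly expressed genes may go undetected.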

Other observations

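The genes in this paragraph were picked after their values were seen. Tfrc, which encodes the transferrin receptor for iron uptake, read 70.4, 69.9, 64.6 and 60.5 CPM at 2 µM and 92.4, 87.1, 88.2 and 101 CPM at 6 µM, a 1.39-fold rise without overlap (adjusted p = 0.000198 by edgeR). The zinc importer gene Slc39a10 rose 1.28-fold (adjusted p = 0.00203). Hmga1 and Hmga1b, which encode chromatin proteins and are near-identical copies whose reads may be shared, rose 1.43- and 1.38-fold. Lpcat3, which remodels phospholipids, and Rnf145, a ubiquitin ligase gene of sterol control, rose 1.2- and 1.21-fold. Sfrp2, a secreted Wnt modulator gene, fell 1.3-fold from 214 to 165 CPM on average, and Adamts5, a proteoglycan-cleaving protease gene, fell 1.32-fold from 164 to 125 CPM (adjusted p = 0.000118 for both, by edgeR). Has2, which makes hyaluronan, fell 1.3-fold, from 77.7 to 59.7 CPM, and had a step difference of -0.53 (adjusted p = 0.0183 by edgeR). That step difference was lost in 5 of 20 alternative fits.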
